A study of Sus scrofa with 8 samples.

Results

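The question treated here is whether the difference between colostral and blood T cells depends on the T cell population. It was measured as a difference of differences: colostrum minus blood in double positive cells, minus colostrum minus blood in CD8 single positive cells, for each sow. All 8 samples of the series enter it. They come from 2 Large White x Landrace sows and form 4 groups of 2, with 1 sample of each sow in every group. The groups are colostral double positive, blood double positive, colostral CD8 single positive and blood CD8 single positive T cells, sorted from mononuclear cells as CD3+CD4+CD8+ or CD3+CD4-CD8+. The titles of the double positive samples also carry the words single positive, and these samples were taken as double positive from the design text. The labels do not say whether the colostrum and blood samples shared arrays, and the readout of 1 sample is called an array here. The labels name no treatment and give no age or parity of the sows. All colostrum samples carried one fluorescent dye and all blood samples another, so a dye effect that is constant for a probe cancels in the difference of differences. A dye effect that varies with brightness need not cancel, and this was not tested.

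Colostrum, the first milk, carries maternal leukocytes. In the pig, mature T cells that carry both CD4 and CD8 are a regular population of blood and tissues, and CD4 T cells are known to take on CD8 alpha after activation. CD8 single positive cells hold the classical cytotoxic T cells, which express CD8 alpha and beta chains, and CD8 alpha also occurs on other T cells of the pig. CD4 and CD8 are coreceptors that bind MHC class II and class I and bring the kinase LCK to the T cell receptor.

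Levels below are quantile-normalised log2 intensities, and each pair of values gives sow 1 before sow 2. The 4 terms of the difference of differences can also be read as double positive minus CD8 single positive in colostrum, minus the same in blood, with each of these differences within 1 dye. A positive value means that colostrum minus blood was more positive in double positive than in CD8 single positive cells. A probe counted as above background when it exceeded the 95th percentile of the negative-control spots of its channel, which lay between 6.78 and 7.05 on the log2 scale. Before normalisation, the colostrum channels had median probe intensities of 118 to 133 and 31.1% to 34.7% of probes above background. Blood channels had medians of 27 to 34 and 28.9% to 36.1% of probes above background. The number of arrays limits the precision.

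No gene passed the test of the difference of differences. limma's moderated test with Benjamini-Hochberg adjustment called 0 of 3773 genes higher (0%) and 0 lower (0%), and the smallest adjusted p was 0.997. At an unadjusted p under 0.05 there were 87 genes, 25 higher and 62 lower, or 2.31% of those tested, where 189 would be 5% of them. The median of the difference of differences was -0.06 over all genes. The 95% interval of a gene extended by a median of 1.89 to either side of its estimate, a factor of 3.71. For 0 genes did the interval lie within 2-fold either way, and for 769 (20.4%) it lay within 4-fold either way. For the remaining genes the interval reached a difference of 4-fold or more in at least 1 direction.

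The difference of differences was nearly uncorrelated between the sows. Its Pearson correlation between sow 1 and sow 2 was 0.02 over 3773 genes and 0.07 over the 1074 genes above background on all 8 arrays. The sows share no sample, and genes are not independent replicates. For comparison, colostrum minus blood averaged over both populations correlated at 0.49 between the sows over the same 1074 genes, a value that includes any dye effect common to the arrays. Double positive minus CD8 single positive averaged over both sources, which holds no dye difference, correlated at 0.34 (Spearman's rho 0.17). A positive difference of differences of 2-fold or more in each sow was found for 89 genes (2.36% of those tested) and a negative one for 172 (4.56%), while 233 reached that size with opposite signs. Of the 261 genes with 1 sign, 11 positive and 20 negative ones were above background on all 8 arrays, and 156 had at least 1 value at the floor, where values have no order. At any size, 895 genes were positive in both sows (23.7%), 1062 negative in both (28.1%) and 1816 of opposite signs (48.1%). With cyclic loess in place of quantile normalisation the split was 192 positive and 232 negative.

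**Figure D1:**
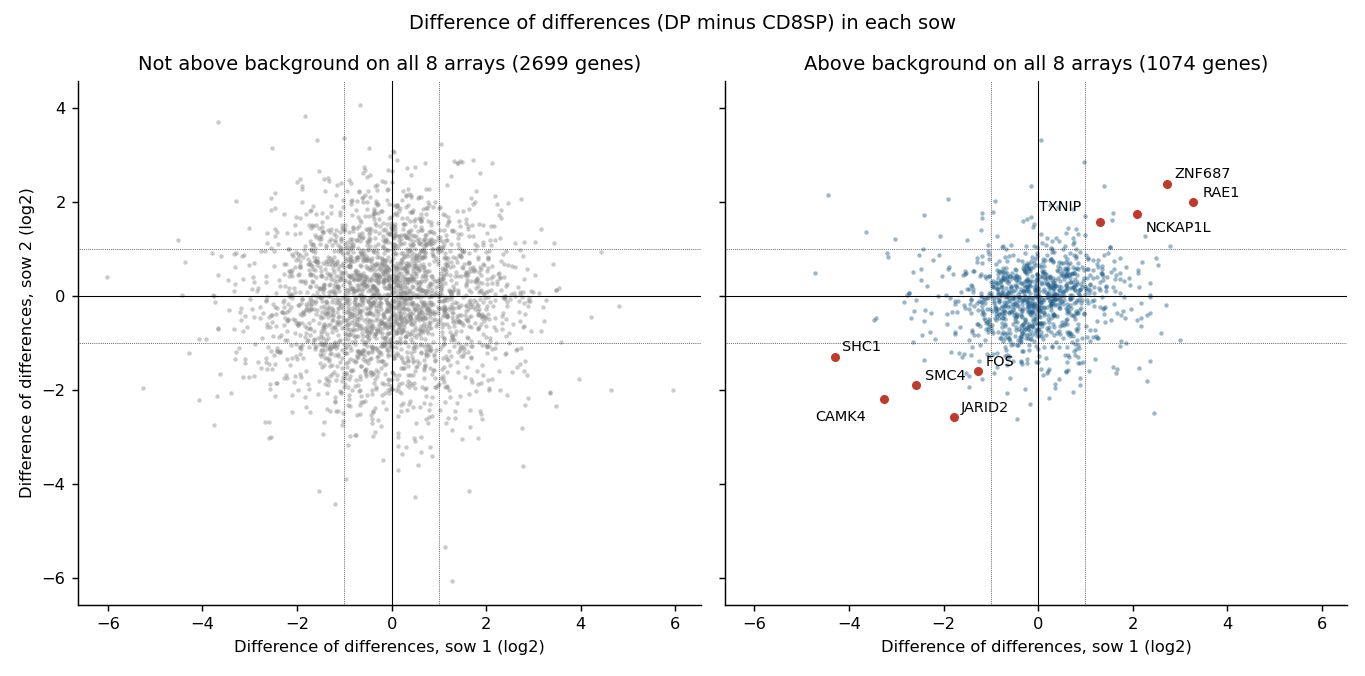
Difference of differences in sow 1 (horizontal axis) and sow 2 (vertical axis), both log2, for each tested gene, at left the 2699 genes not above background on all 8 arrays and at right the 1074 genes above it, with 9 genes described in the text in red. Dotted lines mark 2-fold. Neither cloud is drawn out along the diagonal, with a Pearson correlation of 0.07 at right.

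Over the 1074 genes above background on all 8 arrays, colostrum minus blood correlated at 0.65 between double positive and CD8 single positive cells (means over sows, which share no sample but share the dyes). The mean over sows had an SD across these genes of 0.79 in double positive and 0.74 in CD8 single positive cells. The difference of differences had an SD of 0.64, and of 1.01 in sow 1 and 0.74 in sow 2 when the sows were kept apart. The genes below mostly have the same sign in both sows, and are given as values and not as calls. A gene is said to give its difference of differences, with the SE of the fit after ± (n = 2 per group). At least 2-fold in both sows means 2-fold or more with the same sign in each.

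The sort genes were examined as a check of the populations. CD8B, the beta chain of CD8, was below the detection threshold on all double positive arrays. CD8 single positive cells had 9.58 and 9.84 in colostrum and 7.68 and 8.95 in blood. CD3D and CD3E, chains of the CD3 complex, were bright in all samples, between 11.34 and 12.43. Their differences of differences were -0.03 ± 0.72 and -0.39 ± 0.69. CD3G, another chain, was at 10.54 and 8.05 in colostral and 10.74 and 11.32 in blood double positive cells. Its difference of differences was -1.35 ± 1.11, and -0.11 without the colostral double positive sample of sow 2, the dimmest of the 8. CD247, a further chain, was above background on all 8 arrays and gave -2.26 and -0.36 (-1.31 ± 0.91). CD8A, the alpha chain, had opposite signs in the sows (-0.32 and 1.61), and a second CD8A probe, above background on 4 of 8 arrays, gave 2.91 and 3.33.

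Among the brightest probes of the sort genes, that of CD4 had the difference of differences farthest from 0. Colostral double positive cells had 7.13 and 7.00, just over the threshold, and blood double positive cells 9.72 and 8.41. In CD8 single positive cells it was at the floor of 5.34 in colostrum of sow 1 and at 6.94 in colostrum of sow 2 and was at the floor in blood of both sows. The difference of differences was -2.59 in sow 1 and -3.00 in sow 2, a mean of -2.80 ± 0.92 with a 95% interval of -4.86 to -0.73, before any adjustment for the number of genes. CD8 single positive cells, sorted as CD4-, were below background in blood and on 1 of 2 arrays in colostrum, so no bound is given for CD4. With blood at the floor there, a lower level in colostrum could not appear. The only other probe of CD4, above background on 3 of 8 arrays, gave -1.01. In these sorted samples, fewer CD4-expressing cells and less CD4 RNA per cell cannot be told apart.

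CAMK4, a calcium-calmodulin dependent kinase of T cell activation, had the most negative difference of differences among the genes of T cell receptor signalling. It was at 7.81 and 7.03 in colostral double positive cells, against 10.85 and 9.67 in blood double positive cells. CD8 single positive cells had 9.59 and 8.44 in colostrum and 9.37 and 8.89 in blood. The double positive groups did not overlap and the CD8 single positive groups did. Colostrum minus blood of CAMK4 was -3.05 and -2.64 in double positive cells, and 0.22 and -0.45 in CD8 single positive cells. The difference of differences was -2.73 ± 0.88 (95% interval -4.70 to -0.76, before any adjustment for the number of genes). With single samples left out it lay between -3.32 and -2.14, and the rest of the 21 alternatives stayed inside that range. All draw on the same samples. The fits with replicate blocks leave the estimate unchanged, as does averaging over its 1 probe. The array has 1 probe for it with a symbol. Of the other 6 measured genes of this list, LCK, FYN, PTPRC, CD2, NFATC1 and NFATC2, which encode kinases, a phosphatase, an adhesion molecule and calcium-regulated transcription factors, each lay between -0.66 and 0.21. The list had 1 of 7 genes at least 2-fold in both sows, CAMK4, beside 4.56% of all genes on the negative side. The list median was -0.29.

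**Figure D2:**
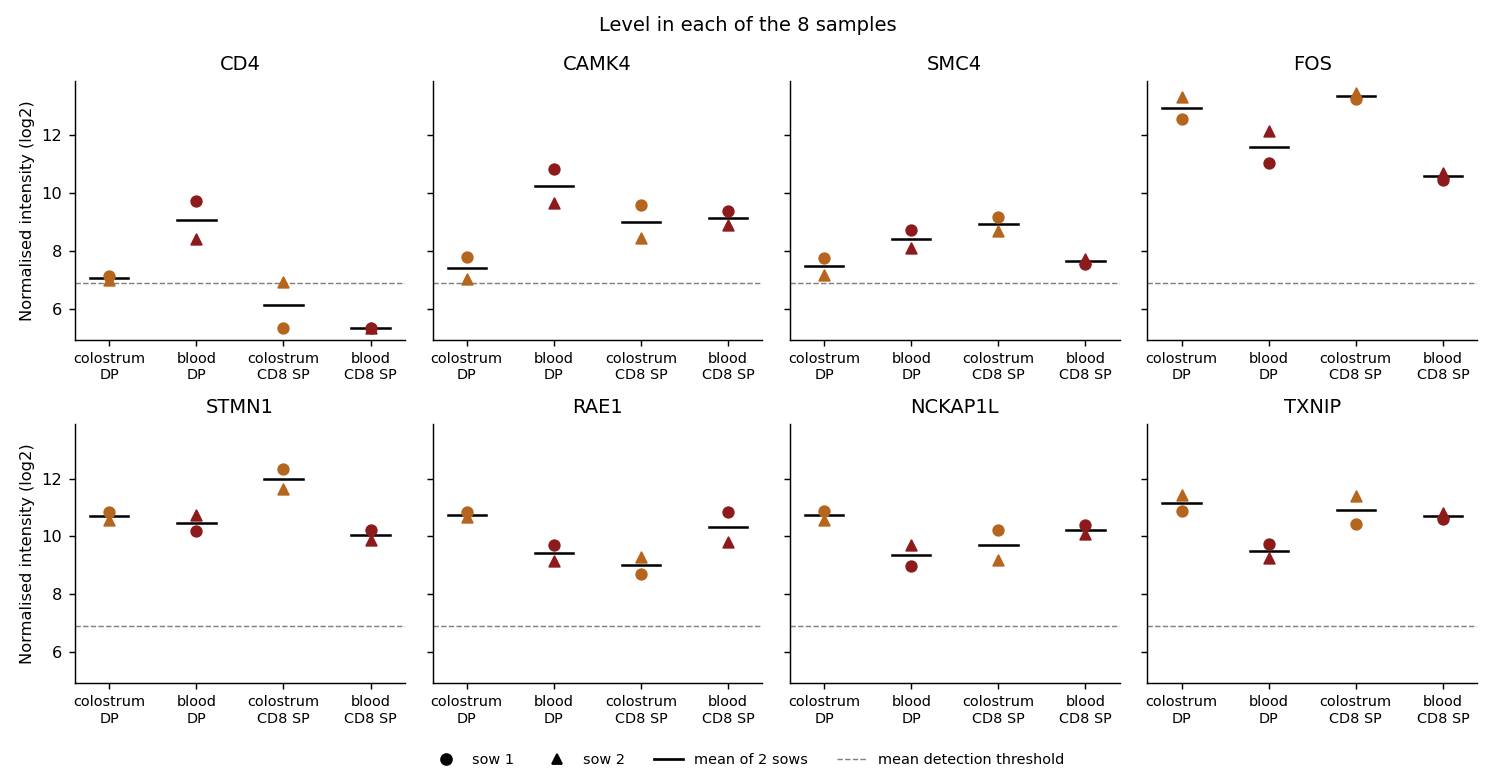
Normalised log2 intensity of 8 genes in each sample, with circles for sow 1, triangles for sow 2, bars for the mean of the 2 sows and a dashed line at the mean detection threshold. In both sows, CD4 and CAMK4 are lower in colostral than in blood double positive cells, and RAE1 and NCKAP1L are higher. In CD8 single positive cells, sorted as CD4-, CD4 is at the floor in blood, so a fall could not appear. CAMK4 of CD8 single positive cells is higher in colostrum in sow 1 and lower in sow 2.

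LEF1, a factor that partners TCF7 in naive T cells, ran the other way. Its level was 8.68 and 8.01 in colostral and 9.48 and 10.63 in blood double positive cells. CD8 single positive cells had 6.32 and 6.97 in colostrum, where 1 of 2 arrays was above background, and 10.56 and 10.72 in blood. LEF1 was lower in colostrum in both populations, by more in CD8 single positive cells, and the difference of differences was 3.43 and 1.13 in the sows (2.28 ± 0.79). The other LEF1 probes gave 0.70 and 1.02. Within the naive and lymph node homing list, KLF2, a factor of quiescence and trafficking, gave 1.63 and 0.37, and IL7R and CCR7, receptors for interleukin 7 and for lymph node chemokines, had opposite signs in the sows. FOXO1, which drives several of these genes, gave -1.87 and -0.03. The list had 1 of 5 genes at least 2-fold in both sows, LEF1, beside 2.36% of all genes on the positive side. The list median was 0.38, against -0.06 for all genes.

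Among genes above background on all 8 arrays, the 12 with the most negative difference of differences in both sows also held CAMK4. In 5 of these 12, CDKN1A, NFIL3, JARID2, SMC4 and SHC1, colostrum was below blood in double positive cells and above it in CD8 single positive cells, in both sows. STMN1, a microtubule destabiliser abundant in dividing lymphocytes, was at 10.85 and 10.57 in colostral and 10.20 and 10.73 in blood double positive cells, against 12.32 and 11.64 in colostral and 10.21 and 9.86 in blood CD8 single positive cells. Only the colostral CD8 single positive samples stand above the other 6. STMN1 gave -1.70 ± 0.70, and all 5 of its probes had the same sign, from -2.99 to -1.52. SMC4, a condensin subunit of mitotic chromosomes, gave -2.24 ± 0.70. Its levels were 7.76 and 7.17 in colostral and 8.72 and 8.11 in blood double positive cells, and 9.17 and 8.69 in colostral and 7.55 and 7.73 in blood CD8 single positive cells. Neither population's colostrum and blood values overlapped. The other 3 probes of SMC4 had the same sign and smaller values, the nearest to 0 being -0.52.

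JARID2, a partner of the polycomb repressive complex, was at 7.62 and 7.85 in colostral and 7.66 and 8.82 in blood double positive cells, and at 9.93 and 10.11 in colostral and 8.18 and 8.52 in blood CD8 single positive cells. The 2 colostral CD8 single positive samples were the highest. Its difference of differences was -2.18 ± 0.75. NFIL3, a basic leucine zipper repressor of lymphocytes, had the same arrangement, with 10.61 and 9.76 in colostral CD8 single positive cells and between 8.70 and 9.48 in the 6 other samples (-1.87 ± 0.69). CDKN1A, the cyclin-dependent kinase inhibitor p21, was at 9.91 and 10.13 in colostral and 10.95 and 10.87 in blood double positive cells, with 10.21 and 10.23 in colostral and 9.85 and 9.72 in blood CD8 single positive cells. It gave -1.33 ± 0.63, and its other probes gave -1.42 and -0.15. SHC1, an adaptor of receptor signalling, had the most negative mean of the 12 (-2.79 ± 1.12), but it was -4.29 in sow 1 and -1.28 in sow 2, with -1.67 when the blood double positive sample of sow 1 was left out, and its other probes had both signs (-0.43 to 1.10).

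FOS, an immediate early gene of the AP-1 factor, was brighter in colostrum in both populations and in both sows. It was at 12.57 and 13.31 in colostral and 11.04 and 12.14 in blood double positive cells, and at 13.25 and 13.47 in colostral and 10.44 and 10.71 in blood CD8 single positive cells. Colostrum minus blood was 1.53 and 1.17 in double positive cells, against 2.81 and 2.76 in CD8 single positive cells. FOS gave -1.43 ± 0.77 and all 4 probes gave values between -1.43 and -1.03. Over the 8 immediate early genes tested the median was -0.34, with -0.63 in sow 1 and -0.72 in sow 2. EGR3, a zinc finger factor of the same early response, gave -0.57 and -0.98. Of the 8, 1 was at least 2-fold in both sows, FOS, beside 4.56% of all genes on the negative side.

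IRF3, the interferon regulatory factor downstream of RNA and DNA sensors, was dimmer in colostrum in both populations. Its colostrum minus blood was -3.07 and -2.42 in double positive cells and -1.45 and -1.12 in CD8 single positive cells (difference of differences -1.45 ± 0.73). DLD, a subunit shared by the mitochondrial alpha-ketoacid dehydrogenases, gave -1.32 ± 0.68, with 6 of 8 measured probes on the same side. CUTA gave -1.58 ± 0.76, with all 4 of its probes between -1.66 and -1.30. VTI1B, a SNARE of endosomal fusion, gave -1.58 ± 0.80, while its other probe gave 0.80. GNAI2 and DHX32 stood just outside the 12, at -1.22 and -1.20 in the sow with the smaller value.

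Among the 12 genes with the most positive difference of differences, RAE1, a factor of mRNA export and the nuclear pore, was at 10.83 and 10.67 in colostral and 9.69 and 9.16 in blood double positive cells, and at 8.72 and 9.29 in colostral and 10.85 and 9.79 in blood CD8 single positive cells. Colostrum stood above blood in double positive cells and below it in CD8 single positive cells, with no overlap in either. RAE1 gave 2.64 ± 0.76 (95% interval 0.93 to 4.35, before any adjustment for the number of genes). The probes of RAE1 disagreed: the other 3 that were above background on at least 4 arrays gave 2.01, 0.36 and -0.60. KPNA1, an importin alpha, gave 1.68 ± 0.81, with a colostrum minus blood of -2.04 and -1.56 in CD8 single positive cells.

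NCKAP1L, the blood cell subunit of the WAVE complex that starts actin branching, was at 10.89 and 10.57 in colostral and 8.97 and 9.71 in blood double positive cells, against 10.21 and 9.18 in colostral and 10.38 and 10.07 in blood CD8 single positive cells. ACTR3, a subunit of the Arp2/3 complex that this pathway switches on, was at 11.49 and 11.40 in colostral and 10.07 and 10.38 in blood double positive cells, and at 10.99 and 10.66 in colostral and 11.10 and 10.68 in blood CD8 single positive cells. For both genes the double positive groups did not overlap and the CD8 single positive groups did. NCKAP1L gave 1.92 ± 0.76 and ACTR3 gave 1.29 ± 0.66, and the 1 other probe of each gave 0.45 and 0.52.

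TXNIP, an inhibitor of thioredoxin and of glucose uptake, was at 10.86 and 11.42 in colostral and 9.72 and 9.25 in blood double positive cells, and at 10.41 and 11.41 in colostral and 10.59 and 10.82 in blood CD8 single positive cells. Blood double positive cells were the lowest pair. It gave 1.45 ± 0.75, and all 9 probes of TXNIP were positive, from 0.30 to 1.45. BCL2L11, which encodes the pro-apoptotic protein BIM, was at 9.70 and 8.59 in colostral and 8.84 and 7.36 in blood double positive cells, and at 7.84 and 8.42 in colostral and 9.25 and 8.50 in blood CD8 single positive cells. Each sow had colostrum above blood in double positive cells and below it in CD8 single positive cells, while the double positive groups overlapped. BCL2L11 gave 1.78 ± 0.92, and its other probes gave 1.80 and 2.16.

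WTAP, part of the RNA methyltransferase complex, was brighter in colostrum by 1.03 and 1.07 in double positive cells, with -0.48 and 0.01 in CD8 single positive cells. Its other probes gave 0.50, 0.28 and -0.43. ZNF687, a zinc finger protein, gave 2.56 ± 1.06, with a range over single left-out samples of 1.69 to 3.44. RRP36, a factor of ribosomal RNA processing, gave 2.79 in sow 1 and 1.07 in sow 2, while its other probes gave 0.38 and -0.91. The other members of this group were EAPP (1.59 ± 0.89), GHITM (1.16 ± 0.76), whose 8 measured probes had 5 positive and 3 negative values, and a probe named IFN-ALPHA-10 (1.87 ± 0.79). The interferon alpha genes are near-identical copies, so that probe may hold signal of several. SLA-DOB, of the MHC class II peptide loading machinery, stood just outside, with 0.99 and 1.71.

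Of the 24 genes named in these groups of 12, 18 had more than 1 probe above background on at least 4 arrays. In 11 of them all such probes had 1 sign, and in 7 the signs were mixed. The tested probe, by which the gene was chosen, is among those counted, and some genes had only 1 other. The share over all genes with several probes is not given. Probes of a gene are measured on the same samples, so this bears on the probe and not on the sows. Over the populations, 7 of the 12 positive genes had colostrum above blood in double positive and below it in CD8 single positive cells in both sows, as did 5 of the 12 negative genes the opposite way round. Among all genes at least 2-fold in both sows, this held for 39 of 89 positive and 65 of 172 negative ones. In 10 of 12 and 8 of 12, the population difference had opposite signs in colostrum and in blood in both sows. The share over all genes is not given for this count, so it is a description of the chosen genes only. The genes were chosen for a large difference of differences of 1 sign in both sows, so opposite directions are partly built into that choice.

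**Figure D3:**
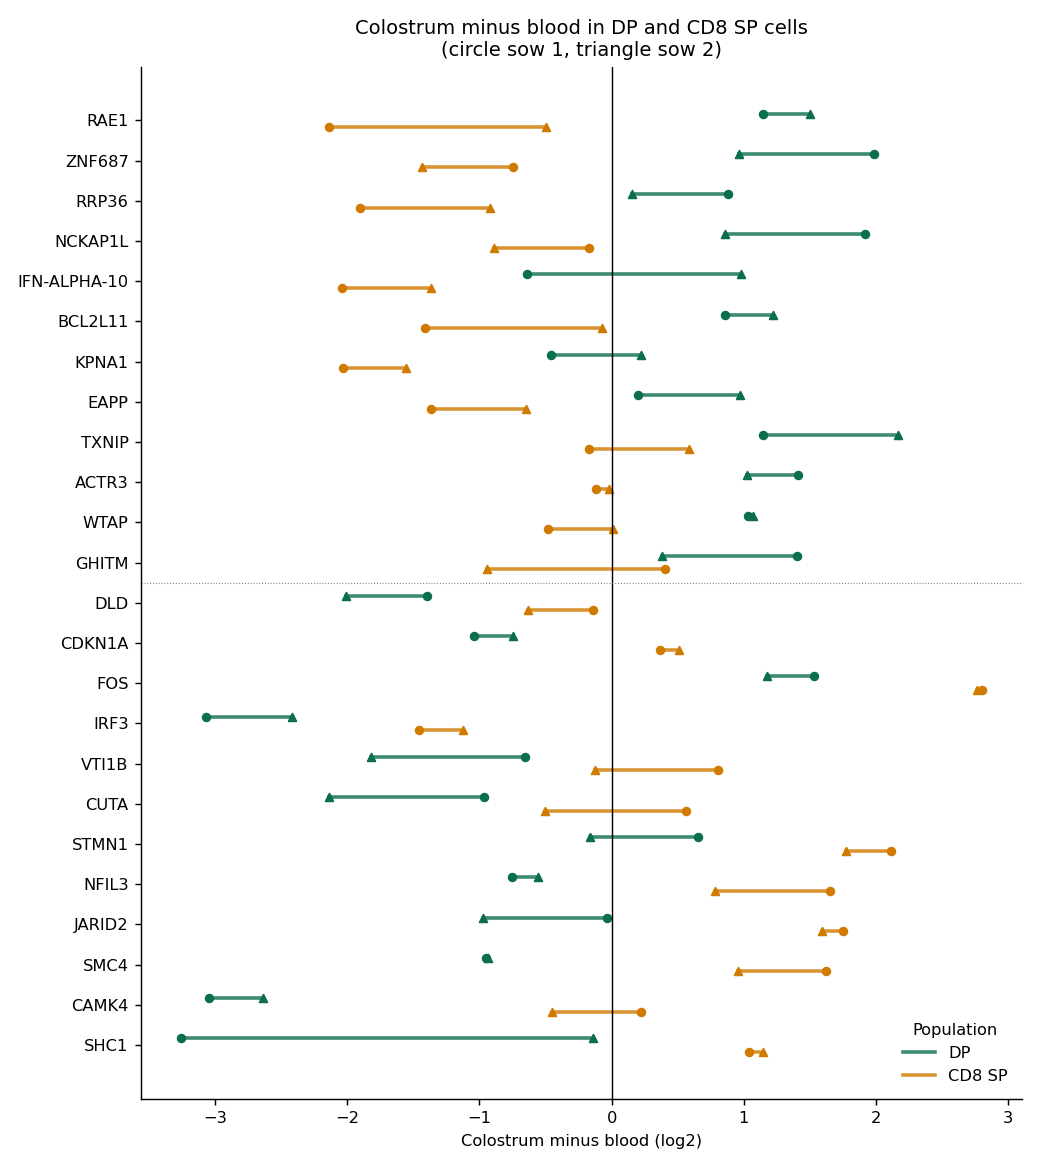
Colostrum minus blood (log2) in double positive cells (green) and CD8 single positive cells (orange) of sow 1 (circles) and sow 2 (triangles), for the 12 genes with the most positive and the 12 with the most negative difference of differences among those above background on all 8 arrays. The genes were chosen for this separation. In 7 of the upper 12 and 5 of the lower 12, the populations lie on opposite sides of 0 in both sows.

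Other genes were above background in only some groups. PISD, the mitochondrial phosphatidylserine decarboxylase, was below background at 5.34 and 6.15 in colostral double positive cells, and at 7.50 and 7.11 in blood double positive cells. CD8 single positive cells had 7.72 and 7.12 in colostrum and were below background in blood, at 6.13 and 5.35. It was at least 1.83-fold lower on this measure. Such a bound is on the group means, allows for the detection limit only and leaves out sampling error. ABCB1, an efflux transporter that marks some memory and cytotoxic T cells, showed the same arrangement near the detection threshold. It was at 6.73 and 6.51, below background, in colostral and at 7.46 and 7.37 in blood double positive cells. The CD8 single positive samples had 7.28 and 7.15 in colostrum and were at the floor in blood, and ABCB1 was at least 1.71-fold lower. CLN3, a lysosomal membrane protein, gave -2.90 ± 0.98 with 1 of 2 colostral double positive arrays above background. M6PR, a receptor that carries lysosomal enzymes, gave -3.14 ± 1.54, with its other measured probes between -1.60 and 0.28.

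On the positive side, STAT6, the transcription factor of interleukin 4 signalling, was at 7.25 and 7.46 in colostral and 7.35 and 6.70 in blood double positive cells, and at 6.70 and 5.88, below background, in colostral and 8.57 and 7.13 in blood CD8 single positive cells. STAT6 was above background on 5 of 8 arrays, 1 of 2 in blood double positive cells, so no bound is given, and another probe gave 0.64. NLRC5, the activator of MHC class I genes, gave 1.99 ± 0.89 with 1 of 2 colostral CD8 single positive arrays above background. LOC100154647 was at least 2.16-fold higher, and SSTR5, a somatostatin receptor, gave 1.88 ± 1.03 with 5 of 8 arrays above background. PMVK and ZNF280C completed the 6 genes of this kind, each above background on both arrays in colostral double positive cells alone, and no bound is given for them.

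Of 10 cytotoxic granule genes tested, 0 were at least 2-fold in both sows, beside 2.36% positive and 4.56% negative of all genes. Opposite signs in the sows were found for 7, beside 48.1% of all genes, and the median was 0.16. GZMB, granzyme B, gave 2.12 and 0.65 (1.38 ± 1.20), and 0.09 without the colostral double positive sample of sow 1 or 2.67 without that of sow 2. On 1 of 2 arrays of each double positive group it was above background. Its level was 9.44 and 6.86 in colostral and 6.81 and 5.34 in blood double positive cells, and 10.82 and 10.33 in colostral and 10.31 and 9.47 in blood CD8 single positive cells. CCL3L1, an inflammatory chemokine with near-identical copies, was above background on both colostral CD8 single positive arrays, at 7.93 and 8.07, and on neither array of either double positive group, so no bound can be given. Among 12 helper and regulatory genes the median was -0.52, and 2 of them were above background on all 8 arrays. ENTPD1, the ectonucleotidase CD39, was above background in colostral CD8 single positive cells alone, at 7.59 and 6.94, so no bound can be given, and its other probes gave 0.56, 1.09 and 0.0044. CTLA4, an inhibitory receptor, was at 7.74 and 8.31 in colostral double positive cells, not above background in either blood group, and measured on 1 of 2 colostral CD8 single positive arrays. No bound can be given for CTLA4.

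Over 11 heat shock genes, colostrum minus blood had a median of 1.42 in double positive and 1.60 in CD8 single positive cells. Their difference of differences had a median of -0.29. At least 2-fold in both sows were 0 of 11, beside 2.36% positive and 4.56% negative of all genes, and 8 of 11 had opposite signs, beside 48.1%. HSP90AA1, the inducible cytosolic HSP90, gave -1.07 and -0.54, with 5 of 6 probes negative. HSP70.2, an inducible HSP70 with near-identical copies, gave -3.43 and -0.47. Among 14 genes of cholesterol and fatty acid synthesis the median was -0.45. SCAP, the escort of the sterol-regulated transcription factors, gave -1.81 ± 1.16, and NSDHL, a sterol dehydrogenase, -1.22 ± 0.92. Both were at least 2-fold in both sows, as were 4.56% of all genes on the negative side. The other measured probe of NSDHL gave 0.30. ACLY, which makes cytosolic acetyl-CoA, gave 0.97 ± 0.92, with -0.31 and -0.36 at its other probes.

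In the glycolysis list 5 of 10 genes were negative in both sows, beside 28.1% of all genes, 0 were positive in both, beside 23.7%, and the median was -0.43 (-0.58 in sow 1 and -0.59 in sow 2). LDHB, the lactate dehydrogenase B chain, was at 12.49 and 11.87 in colostral and 13.18 and 13.70 in blood double positive cells, and at 13.04 and 12.23 in colostral and 12.65 and 12.83 in blood CD8 single positive cells. Blood double positive cells had the highest pair. LDHB gave -1.15 ± 0.73, and all 12 of its probes were negative, from -1.47 to -0.40. SLC2A1, a glucose transporter, gave -0.81 ± 0.77. SLC1A5, a glutamine transporter, was brighter in colostrum in both populations, by 3.88 and 3.15 in double positive and by 2.04 and 2.62 in CD8 single positive cells (1.19 ± 0.94), with 3 of 3 probes positive. Its level in blood double positive cells was at the floor in sow 1.

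Cytosolic ribosomal protein genes, 37 tested and above background on every array, had a median of -0.06. At least 2-fold in both sows were 0 of them, beside 2.36% positive and 4.56% negative of all genes. RPL35 was the only one with at least 0.5 in both sows, at -1.27 and -0.82. The 27 respiratory chain genes had a median of -0.34, with 0.06 in sow 1 and -0.58 in sow 2. Of these, 6 were positive in both sows, 7 negative in both and 14 of opposite signs. The shares of all genes were 23.7%, 28.1% and 48.1%. ATP5A1, a subunit of ATP synthase, gave -1.15 ± 0.70, and 12 of its 14 probes were negative. UQCR10, another gene of this list, gave 0.72 ± 0.66. The 20 proteasome genes had a median of -0.16. The median was 0.16 for 22 interferon-stimulated genes, 13 of which had opposite signs in the sows, beside 48.1% of all genes, and OAS2, which senses double-stranded RNA, gave 1.94 and 1.53 (1.74 ± 1.38), with 0.44 to 3.03 when single samples were left out and 0.13 as the mean of its probes. In double positive cells, colostrum minus blood of OAS2 was 3.60 in sow 1 and -0.08 in sow 2. MHC class II genes had a median of 0.15 over 9. SLA-DRA, the chain shared by DR molecules, gave -1.04 ± 1.07, but 0.14 without the colostral double positive sample of sow 2, and SLA-DQB1 gave -0.98 ± 0.79 with its other 3 probes positive.

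Proliferation genes had a median of -0.57 over 11, of which 1 was above background on all 8 arrays. Of the 11, 3 were positive in both sows, 4 negative in both and 4 of opposite signs. The shares of all genes were 23.7%, 28.1% and 48.1%. The median ranged from -0.88 to 0.30 over 16 alternatives and had the other sign in 3 of them. NCAPH2, a condensin II subunit, was not above background in colostral double positive cells and was at 8.39 and 8.32 in blood double positive cells, with 7.33 and 7.01 in colostral and 7.76 and 8.32 in blood CD8 single positive cells. It was at least 1.47-fold lower on this measure. Taking the 22 lists of pathways and T cell genes as 1 set of 275 genes, 4 (1.45%) were at least 2-fold positive in both sows and 13 (4.73%) negative, beside 2.36% and 4.56% of all genes, and their median was -0.19. The list medians lay between -0.78 for the sort genes and 0.38 for the naive list, and in 13 of the 22 the median had the same sign in both sows.

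**Figure D4:**
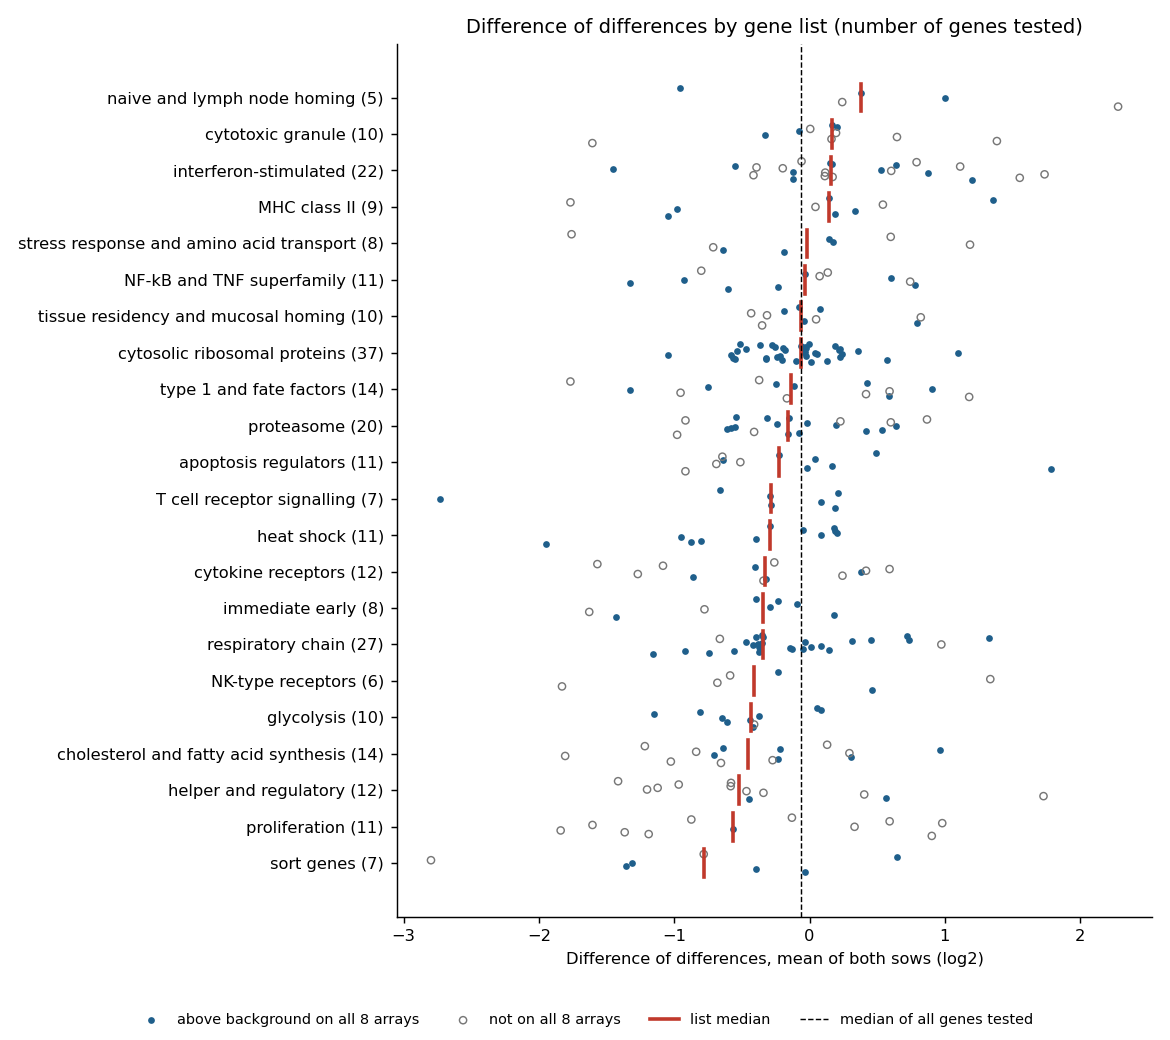
Mean difference of differences of both sows (log2, horizontal axis) for each tested gene of 22 lists, filled where the probe was above background on all 8 arrays and open otherwise, with the list median in red and the median of all genes dashed. The list medians lie between -0.78 and 0.38, inside the spread of the members of the lists.

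Markers of other cells varied between samples. The mean log2 level of 8 mammary epithelial and milk genes lay between 6.44 and 6.62 in colostral and 6.25 and 6.79 in blood double positive cells, and between 6.52 and 7.19 in colostral and 6.28 and 6.89 in blood CD8 single positive cells. The casein gene CSN1S1 was not above background in double positive cells. CD8 single positive cells had 7.36 and 11.38 in colostrum and 5.58 and 8.60 in blood. Both higher values of CSN1S1 came from sow 2, and of its 16 other probes none was above background on more than 2 arrays. CD79A, a B cell receptor chain, was at 6.59 and 9.48 in colostral double positive cells, not above background in blood double positive cells, and at 7.62 and 8.76 in colostral and 8.82 and 8.54 in blood CD8 single positive cells. It was the 1 gene of the B cell list that was tested, and its difference of differences of 2.17 ± 1.20 became 0.72 without the colostral double positive sample of sow 2, the only one of the 4 double positive samples above background. Of 5 monocyte genes at most 3, and of 7 neutrophil symbols at most 5, were above background in a sample. The neutrophil symbols include IL8 and CXCL8, which name 1 gene. The mean level of the monocyte genes lay between 5.86 and 6.72 in colostral and 5.93 and 6.56 in blood double positive cells, and between 6.27 and 6.78 in colostral and 6.77 and 6.82 in blood CD8 single positive cells. The mean over the neutrophil symbols was 6.45 to 6.86 in colostral and 5.98 to 7.67 in blood double positive cells. CD8 single positive cells had 6.58 to 7.28 in colostrum and 6.58 to 7.40 in blood. Of the red cell and platelet list, 2 genes were tested, GP9 and ITGA2B, both of platelets, and no red cell gene was. Their mean levels were 7.58 and 7.88 in colostral and 8.38 and 8.10 in blood double positive cells. CD8 single positive cells had 6.66 and 7.43 in colostrum and at most 8.03 in blood. The mean was lower in colostrum than in blood in each sow and population. The difference of differences was -0.18 for GP9 and 1.09 for ITGA2B, with a median of 0.46. The part of such cells in the values above was not tested.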

How the data were processed

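The authors deposited, for each sample, 1 whole-number intensity for each of 45220 spots, from amplified cDNA labelled with a dye per source, per the labels' protocols. Scanner and background correction are unknown. An alternative used the log2 values of the series matrix that the authors deposited; 79.1% of its values lay within 0.01 of quantile-normalised intensities. Repeated spots were averaged, 43603 probes were quantile normalised, a floor was set at 40.6 intensity units (the mean normalised median of 153 negative-control spots) and log2 was taken; 11.2% of tested values lay at the floor. The platform annotation names 10278 probes with 1 symbol (0 with several, 33325 unnamed here); 6051 accessions matched Sscrofa11.1 RefSeq names, which changed 443 symbols. Probes with a mean above the 30th percentile were kept and the brightest stood for each gene, which gave 3773 of 4560 genes.

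limma 3.58.1 (R 4.3.3) was fitted to 4 group means of 8 samples (4 residual and 5.39 prior degrees of freedom), called under an adjusted p of 0.05, and was tested on simulated data. Same-numbered samples come from the same sow, which pairs them; their deviations from the group means correlated between -0.09 and 0.34 over pairs of groups. A group below background on both arrays has only a bound, set at the detection threshold, which leaves out sampling error. Named genes were the 12 highest and 12 lowest by the smaller of both sows' values among genes above background on all 8 arrays, the 6 highest and 6 lowest among other measured genes, the sort genes, and up to 2 genes a direction from each list; the remaining genes named were chosen after their values were seen. The members and lists were chosen with earlier results of these data known. Alternatives covered scaling, background, floor, filter, probe choice, blocks and left-out samples.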

Additional observations from a re-analysis of the deposited data

How the results depend on the processing

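In all 21 alternatives limma called 0 genes in either direction; the smallest adjusted p was 0.0722, without the floor, and otherwise between 0.402 and 1.00. The sow as a replicate block gave 0 calls (smallest adjusted p = 0.996), as did the colostrum and blood pair as a random block (0.973), paired log ratios (0.955) and, added after the data were seen, population differences within sow and source (0.995), so pairing changed no call. The correlation between sows lay between 0.02 and 0.11. Genes at least 2-fold in both sows (positive, negative and of opposite signs; 89, 172 and 233 in the fit reported) were 192, 232 and 384 with cyclic loess, 134, 211 and 300 in the deposited matrix, 23, 49 and 60 with normexp, 174, 250 and 400 without the floor, 48, 114 and 86 when a group with both arrays above background was required, and 11, 20 and 22 among genes above background on all 8 arrays, a filter added after the data were seen. Of 82 named genes, 72 kept their sign in every alternative that gave them a value. Most of the 82 were chosen for 1 sign in both sows, and the replicate blocks leave an estimate unchanged. A kept sign is therefore partly built in, and the share over all genes is not given. The 82 include genes near the floor for which no bound can be given. CD8B turned to 0.83 under 75th percentile scaling and 1.23 under cyclic loess, and BIRC5 to 0.90 without the floor. With the mean of probes, CD3D turned to 0.25, CASP8 to 0.21, KRT8 to 0.13, SLA-DQB1 to 0.12 and PSMA4 to 0.020. Leaving out 1 sample at a time gave CD3D values from -0.48 to 0.42, SLA-DRA from -2.23 to 0.14, CD14 from -0.32 to 1.46 and MPO from -0.20 to 1.35. The cause of these shifts was not tested. Of 26 list medians, recomputed under 16 or 17 of the alternatives, 8 kept their sign in those. They were the medians of the sort, lipid, immediate early, interferon, glycolysis, cytokine receptor, respiratory chain and platelet lists. Signal near background limits 2699 of the 3773 genes.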

Other observations

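Some genes above background on all 8 arrays had large differences of differences of opposite sign in the sows; they were chosen after their values were seen. CYBA, a subunit of the NADPH oxidase, was at 9.91 and 7.36 in colostral and 10.11 and 11.26 in blood double positive cells, and at 9.56 and 8.46 in colostral and 11.41 and 10.74 in blood CD8 single positive cells. It was lower in colostrum in all 4 comparisons within a sow and a population, while its difference of differences was 1.65 in sow 1 and -1.63 in sow 2. HCLS1, an actin-binding protein of blood cells, was at 10.96 and 7.33 in colostral and 8.27 and 10.37 in blood double positive cells, and gave 2.37 and -1.37. GLO1, the glyoxalase that clears methylglyoxal, gave -4.44 and 2.15, with 7.66 and 10.42 in blood CD8 single positive cells. ZNF407 gave 2.44 and -2.49.

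The array has 33325 probes that are unnamed here. A fit over the 30522 probes of all kinds that pass the brightness filter, 22545 of them unnamed, called 0 probes with limma (smallest adjusted p = 1.00), and 682 had an unadjusted p under 0.05. The difference of differences correlated at 0.02 between the sows over all of them and at 0.13 over the 6335 above background on all 8 arrays.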
